A study of Ovis aries with 9 samples.

Results

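γ-Aminobutyric acid type A (GABA-A) receptors are pentameric chloride channels that open when they bind GABA, the main inhibitory transmitter of the adult brain. Each receptor is assembled from α, β and usually γ subunits, GABA binds between an α and a β subunit, and the choice of subunits sets where the receptor sits and which drugs and neurosteroids act on it. In the hypothalamus GABA is a main input to the neurons that release gonadotropin-releasing hormone (GnRH), the peptide that drives the reproductive axis at puberty. The 7 subunit genes described here are 4 α genes (GABRA2, GABRA3, GABRA4 and GABRA5), 2 β genes (GABRB1 and GABRB2) and 1 γ gene (GABRG1). They were taken from 21284 sheep genes by matching the coding RefSeq transcripts of the expression table to their gene symbols, and the values of all coding transcripts of a gene were summed. All 7 passed the filter on low values that left 14238 genes for testing.

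The libraries came from the hypothalamus of 9 Dolang ewes, with 3 ewes in each stage and 1 library per ewe. Prepubertal ewes were 120 days old and refused mounting, pubertal ewes were 130 days old and in their first behavioural estrus, and postpubertal ewes were 150 days old and had become calm again. Stage and age therefore change together and cannot be told apart. All ewes were healthy, untreated before sampling as far as the methods state, were kept under the same management and were killed with intravenous pentobarbital sodium, a barbiturate that itself acts on GABA-A receptors, before the tissue was dissected. Libraries are named here by stage and replicate number, as Prepuberty 1 to Postpuberty 3. Values are FPKM (read fragments scaled to transcript length and to library size), so they can be compared between genes as levels per length. The table gives no read counts, so no counting interval is given for single values.

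The library Puberty 2 stood apart from the other 8. Its FPKM summed over all rows was 599726 against 359588 to 398109 elsewhere, and 1058 of the tested genes were listed at 0 in it against 52 to 151 elsewhere, so stage comparisons are given with and without it. Neuron markers (10 genes) summed to between 700 and 2522 FPKM, and the lowest sums were in Postpuberty 1 (700 FPKM), Puberty 2 (760 FPKM) and Prepuberty 1 (916 FPKM). In bulk tissue, fewer cells of a type and less RNA per cell cannot be told apart. Of 16 genes that mark hypothalamic neurons, GNRH1 and FEZF1 were listed at 0 in every library. With these included, 8 of the 16 stayed under 1 FPKM in every library. The 16 together summed to between 29.2 FPKM (Postpuberty 1) and 164 FPKM (Postpuberty 3). SST alone was 4.27 FPKM in the former and 107 FPKM in the latter, so the sum rests largely on single genes. Markers of choroid plexus (3 matched genes, summing to between 9.71 and 7630 FPKM) and pituitary (6 matched genes, between 0.125 and 216 FPKM) also varied between libraries, with the highest sums in Puberty 3 and Postpuberty 1, respectively. Their part in the results was not tested.

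Of the 7 genes, 4 lie together on chromosome 6 of the ARS-UI_Ramb_v3.0 assembly, within 1.49 Mb. In order they are GABRG1 (gene ID 101121012, chr6:65297535-65387806), GABRA2 (101121265, chr6:65511804-65683656), GABRA4 (101121776, chr6:66217148-66295717) and GABRB1 (101122358, chr6:66336300-66783598). The other 3 lie on separate chromosomes. GABRB2 (100913155) is at chr5:70506031-70815285, GABRA5 (101115159) at chr18:3615774-3709208 and GABRA3 (101113565) at chrX:83375750-83619455.

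GABRA3 and GABRB1 were the most abundant members, and GABRA5 was the least abundant. Over the 9 libraries GABRA3 averaged 6.98 ± 4.20 FPKM (SD, n = 9) and GABRB1 6.90 ± 1.95 FPKM (SD, n = 9). GABRG1 (3.73 ± 1.30 FPKM), GABRA2 (3.40 ± 1.63 FPKM), GABRA4 (3.39 ± 2.09 FPKM) and GABRB2 (3.20 ± 5.50 FPKM) followed at similar means, and GABRA5 averaged 0.871 ± 0.939 FPKM (SD, n = 9 for each). Most neighbours in this order did not differ beyond their spread. GABRA3 exceeded GABRB1 in only 3 of 9 libraries, GABRA2 exceeded GABRA4 in 4 of 9 and GABRB2 exceeded GABRA5 in 4 of 9. GABRB1 exceeded GABRG1 in 9 of 9 libraries, which was the clearest step in the order. Without Puberty 2 the order of the means was the same, from 7.76 FPKM for GABRA3 to 0.980 FPKM for GABRA5 (n = 8).

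**Figure D1:**
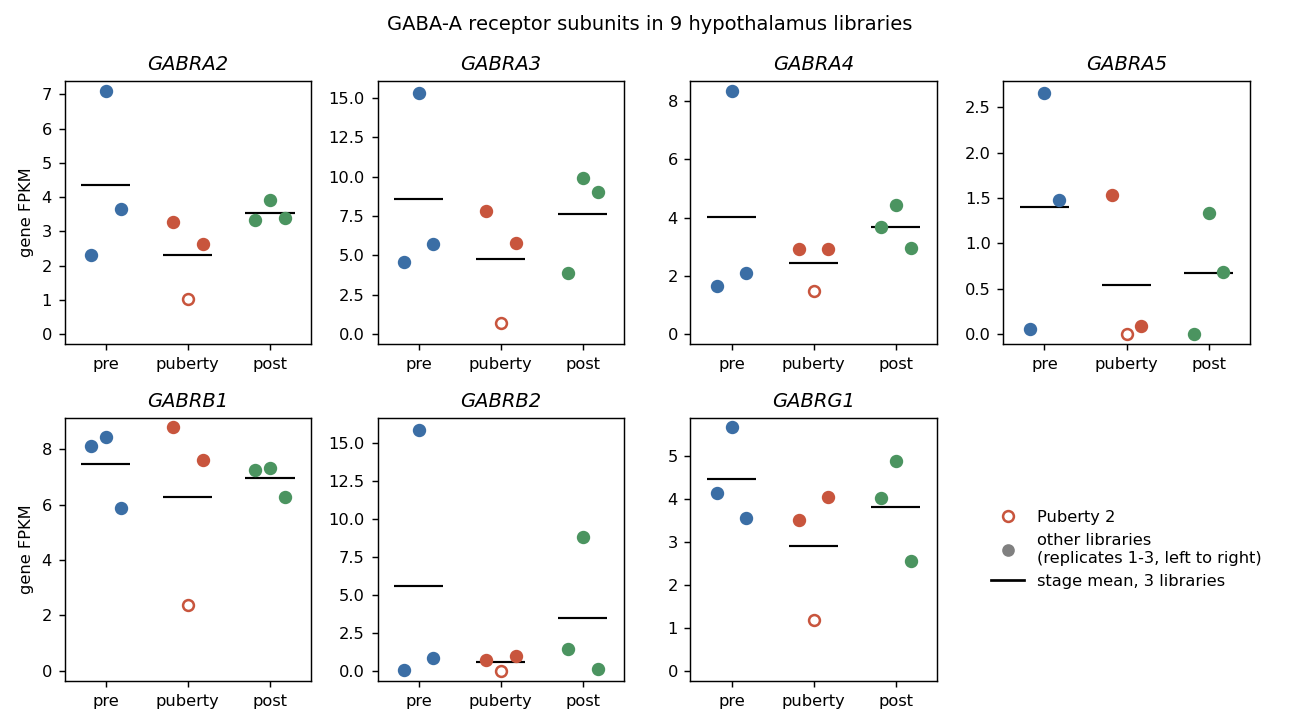
FPKM of each of the 7 subunit genes (panels) in each of the 9 libraries, grouped by stage on the horizontal axis. Each point is 1 ewe, the open points mark Puberty 2 and horizontal bars mark stage means. GABRB2 reaches 15.9 FPKM in Prepuberty 2 and 8.83 FPKM in Postpuberty 2 and stays at or under 1.45 FPKM in the other 7 libraries.

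The α subunit sets much of a receptor's pharmacology, since benzodiazepines bind where an α subunit meets a γ subunit. The α2 subunit, encoded by GABRA2, is known for receptors at the axon initial segment and for the anxiolytic action of benzodiazepines. GABRA2 measured 2.31, 7.09 and 3.65 FPKM in Prepuberty 1 to 3, 3.27, 1.04 and 2.63 FPKM in Puberty 1 to 3, and 3.33, 3.92 and 3.38 FPKM in Postpuberty 1 to 3. Prepuberty 2 was the highest and Puberty 2 the lowest, and the 3 postpubertal libraries all lay above the 3 pubertal ones. The prepubertal libraries overlapped both other stages.

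GABRA3 encodes the α3 subunit, which is prominent on monoaminergic neurons. It measured 4.60, 15.3 and 5.70 FPKM in the prepubertal libraries, 7.82, 0.718 and 5.80 FPKM in the pubertal ones and 3.88, 9.90 and 9.02 FPKM in the postpubertal ones. The 3 stages overlapped, and the lowest value again came from Puberty 2.

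GABRA4 encodes the α4 subunit, a component of receptors outside the synapse that respond to low ambient GABA and to neurosteroids. It measured 1.64, 8.35 and 2.10 FPKM in the prepubertal libraries, 2.94, 1.48 and 2.93 FPKM in the pubertal ones and 3.68, 4.44 and 2.97 FPKM in the postpubertal ones. Every postpubertal library lay above every pubertal one, by as little as 2.97 against 2.94 FPKM, and the prepubertal libraries held both the highest value and the second lowest.

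GABRA5 encodes the α5 subunit, best known from extrasynaptic receptors of the hippocampus. It measured 0.059, 2.66 and 1.48 FPKM in the prepubertal libraries, 1.54, 0 and 0.088 FPKM in the pubertal ones and 0, 1.34 and 0.681 FPKM in the postpubertal ones. It was listed at 0 in Puberty 2 and Postpuberty 1, and within each stage the libraries ranged from under 0.1 FPKM to a higher level.

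The β subunits form part of the GABA binding site and carry the sites of many anaesthetics. GABRB1, which encodes the β1 subunit, measured 8.14, 8.46 and 5.87 FPKM in the prepubertal libraries, 8.83, 2.38 and 7.60 FPKM in the pubertal ones and 7.25, 7.32 and 6.29 FPKM in the postpubertal ones. Apart from Puberty 2, its values stayed within 1.50-fold of each other, the narrowest range among the members. GABRB1 was the highest of the 7 genes in 6 libraries, GABRA3 in 2 (Postpuberty 2 and Postpuberty 3) and GABRB2 in 1 (Prepuberty 2).

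GABRB2 encodes β2, a major β subunit of the adult mammalian brain, and was the most uneven member. It measured 0.022, 15.9 and 0.859 FPKM in the prepubertal libraries, 0.731, 0 and 0.948 FPKM in the pubertal ones and 1.45, 8.83 and 0.093 FPKM in the postpubertal ones. Prepuberty 2 and Postpuberty 2 stood far above the rest, and the 3 ewes within prepuberty, and the 3 within postpuberty, differed by more than any pair of stage means. These means were 5.58 FPKM before, 0.560 FPKM at (0.840 FPKM without Puberty 2) and 3.46 FPKM after puberty. On the scale of log2(FPKM + 1), the SD of GABRB2 over the 8 other libraries was 1.47, larger than that of 99.3% of tested genes, whose median SD was 0.28. The SD of GABRB1 on the same scale and libraries was 0.18, larger than that of 24.2% of tested genes.

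GABRG1 encodes γ1, a γ subunit that gives receptors of low benzodiazepine sensitivity. It measured 4.14, 5.68 and 3.57 FPKM in the prepubertal libraries, 3.52, 1.18 and 4.05 FPKM in the pubertal ones and 4.03, 4.90 and 2.55 FPKM in the postpubertal ones. The stages overlapped, and outside Puberty 2 the highest library was 2.22-fold above the lowest. The same ratio was 3.06 for GABRA2, 3.96 for GABRA3 and 5.10 for GABRA4.

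The share of each subunit was computed as its percentage of the summed FPKM of the 7 genes. The sum was 20.9, 63.4 and 23.2 FPKM in the prepubertal libraries, 28.6, 6.79 and 24.1 FPKM in the pubertal ones and 23.6, 40.6 and 25.0 FPKM in the postpubertal ones. Puberty 2 thus had the lowest sum, and Prepuberty 2 and Postpuberty 2 the highest. GABRB1 made up 27.6% ± 8.11 of the sum and GABRA3 23.3% ± 7.03, so these genes together supplied about as much as the other 5. GABRG1 made up 14.4% ± 3.69, GABRA2 12.5% ± 2.16, GABRA4 12.5% ± 4.16, GABRB2 7.06% ± 9.50 and GABRA5 2.51% ± 2.47 (SD, n = 9 for each). The GABRA2 share was the steadiest, between 9.65% and 15.7% in all libraries, although its level ranged from 1.04 to 7.09 FPKM.

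By stage, the GABRB1 share averaged 25.8% ± 12.8 before puberty, 32.5% ± 2.23 at puberty and 24.6% ± 6.38 after it (SD, n = 3). Without Puberty 2 the pubertal mean was 31.2%. Every pubertal library lay between the lowest and the highest prepubertal one, at 38.9%, 13.3% and 25.3% in prepuberty and 30.8%, 35.0% and 31.6% in puberty. The postpubertal libraries held 30.7%, 18.0% and 25.2%. The GABRA3 share averaged 23.6% ± 1.37 before puberty, 20.7% ± 8.89 at puberty and 25.6% ± 9.90 after it (SD, n = 3), and it was lowest in Puberty 2 (10.6%) and highest in Postpuberty 3 (36.1%). Without Puberty 2 its pubertal mean was 25.7%, so that puberty went from the lowest of the 3 stage means to the highest, within the spread between ewes. The composition of Puberty 2 differed mainly in GABRA3 and GABRA4, with GABRA4 at 21.8% of the sum against 7.83% to 15.6% in the other 8 libraries. Without Puberty 2, the 9-library means changed to 24.9% for GABRA3, 11.4% for GABRA4 and 26.7% for GABRB1 (n = 8).

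**Figure D2:**
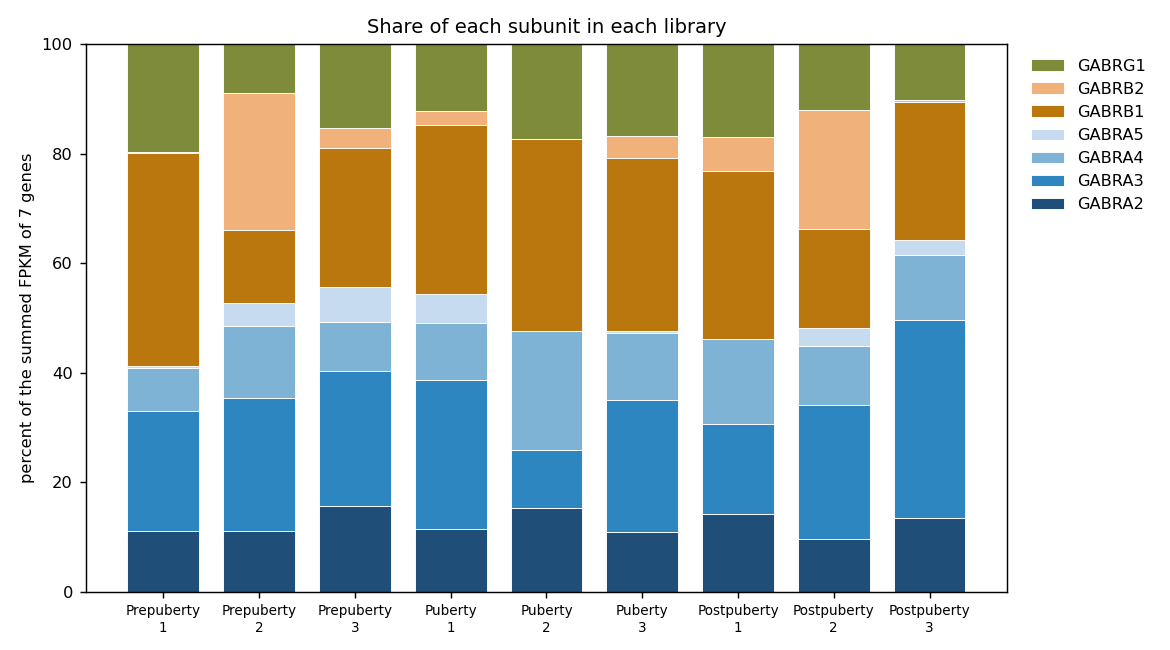
Stacked bars give the percentage of the summed FPKM of the 7 subunit genes taken by each gene, 1 bar per library, grouped by stage. GABRB2 takes 25.0% in Prepuberty 2 and 21.7% in Postpuberty 2 and at most 6.12% in the other 7 libraries.

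Prepuberty 2 and Postpuberty 2 differed from the other libraries through GABRB2. GABRB2 made up 65.2% and 54.7% of the summed β members (GABRB1 plus GABRB2) in these libraries and between 0% and 16.6% in the others. Among the 4 α genes, GABRA3 was the largest in every library except Puberty 2, where GABRA4 led with 45.7% and GABRA3 held 22.2%. Outside Puberty 2, GABRA3 took between 35.6% and 56.2% of the α sum.

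A further 10 GABA-A subunit genes were matched from 12 listed. Their summed FPKM was highest in the same libraries, at 121 FPKM in Prepuberty 2 and 101 FPKM in Postpuberty 2, and lowest in Puberty 2 at 10.5 FPKM. The 7 members made up 36.5% ± 9.44 of the FPKM of all 17 subunit genes (SD, n = 9), from 23.0% in Postpuberty 1 to 56.2% in Prepuberty 1. In Postpuberty 1, GABRD (24.5 FPKM) and GABRA6 (21.9 FPKM) summed to 46.3 FPKM, against 0.235 to 21.6 FPKM in the other 8 libraries. These 2 genes were picked out after their values were seen. GABRA6 was 6.20 FPKM in Puberty 3 and at most 1.13 FPKM in the remaining libraries. The other subunit genes that share chromosome 5 with GABRB2 summed to 6.51, 98.3 and 24.2 FPKM in the prepubertal libraries, 35.1, 3.84 and 29.4 FPKM in the pubertal ones and 44.2, 84.8 and 22.1 FPKM in the postpubertal ones. As for GABRB2, Prepuberty 2 and Postpuberty 2 were the highest.

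The stage comparisons asked whether any subunit gene changed as ewes entered or left puberty. In no comparison did a member pass the test. With limma on log2(FPKM + 1) over all 9 libraries, a gene was called at an absolute log2 difference of at least 1 with a Benjamini-Hochberg adjusted p under 0.05. That called 0 of the 7 members and 0 of all 14238 genes (0%) from prepuberty to puberty, from puberty to postpuberty and from prepuberty to postpuberty. At an unadjusted p under 0.05 there were also 0 members in each comparison, against 259 genes (1.82%), 305 genes (2.14%) and 116 genes (0.815%), respectively. The F test over the 3 stages gave its smallest member p for GABRA2, at 0.262 with a limma adjusted p of 0.990.

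Differences are given as later minus earlier stage on the log2(FPKM + 1) scale, which understates the change of low genes. From prepuberty to puberty the fitted differences of the 7 members ran from -1.08 to -0.33 with a median of -0.60, beside a median of -0.14 over all tested genes, and the limma adjusted p-values ran from 0.838 to 0.842. GABRA2 had a difference of -0.66 (SE 0.39), with a 95% confidence interval from -1.55 to 0.23. GABRB2 had the largest difference, -1.08 (SE 1.06), with the widest interval, from -3.47 to 1.30. Without Prepuberty 2 its difference turned to 0.12. These intervals include 0 and also include changes of more than 2-fold, so a change of that size was not excluded at this number of ewes. Without Puberty 2 the members' median was -0.17 beside 0.02 over all genes, without Prepuberty 2 it was -0.27 and without Prepuberty 1 it was -0.96. Without Puberty 2 the difference of GABRB1 turned from -0.35 to 0.13 (SE 0.19, interval from -0.32 to 0.58).

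From puberty to postpuberty the fitted differences ran from 0.17 (GABRA5) to 0.99 (GABRB2) with a median of 0.46, beside 0.19 over all tested genes, and limma adjusted p-values from 0.780 to 0.902. The GABRB2 difference was 0.12 without Postpuberty 2 and 1.71 without Postpuberty 3. Without Postpuberty 2 the median was 0.24. Without Puberty 2 it was 0.07 beside 0.03, and 3 of the 7 (GABRA5, GABRB1 and GABRG1) were fitted lower in postpuberty. Puberty 2 enters the comparison of prepuberty with postpuberty only through the shared estimate of the spread. There the members ran from -0.43 (GABRA5) to 0.13 (GABRA4), with a median of -0.10 beside 0.05 over all genes and a limma adjusted p of 1 for each. This median was 0.21 without Prepuberty 2, -0.37 without Prepuberty 1, -0.24 without Prepuberty 3, -0.28 without Postpuberty 2 and -0.02 without Postpuberty 3. The first 2 comparisons share the pubertal libraries, so a low value in Puberty 2 enters both with opposite sign.

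**Figure D3:**
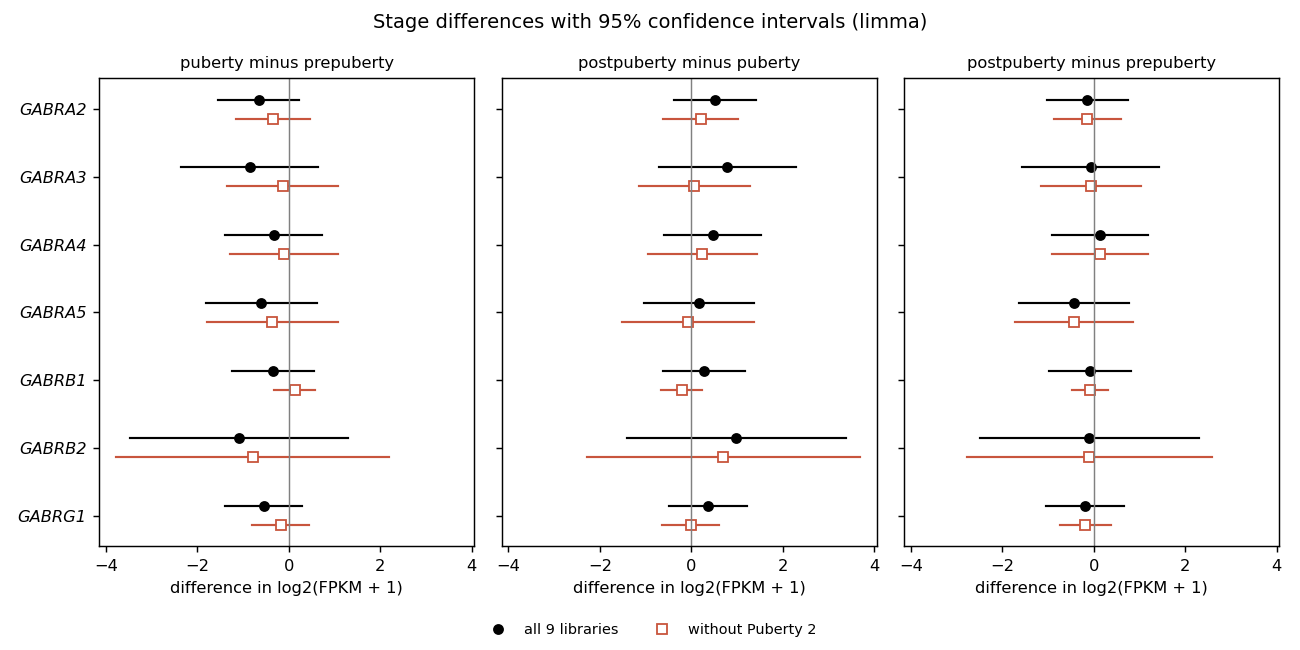
Fitted log2 differences (later minus earlier stage, log2(FPKM + 1) scale) of the 7 subunit genes in the 3 stage comparisons, with 95% confidence intervals, for all 9 libraries and without Puberty 2. Every interval includes 0, and leaving out Puberty 2 moves the first 2 comparisons toward 0, with the median of the members going from -0.60 to -0.17 and from 0.46 to 0.07.

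The libraries themselves were also compared for complete separation, where every library of 1 stage lies above every library of another. Between prepuberty and puberty 0 of the 7 members separated, beside 5.16% of all tested genes in either direction. Between puberty and postpuberty GABRA2 and GABRA4 separated, with postpuberty above, beside 5.25% of tested genes that separated in that direction. For each the exact two-sided permutation test gave p = 0.1, the smallest that 3 against 3 ewes allow. With the noncoding transcript of GABRA2 added to its level, the libraries of these stages overlapped for GABRA2. Comparing prepuberty with postpuberty, 0 of the 7 separated, beside 4.57% in either direction. Without Puberty 2, 0 of the 7 separated from prepuberty to puberty, beside 11.7% of tested genes. GABRA2 and GABRA4 still lay higher in postpuberty than in puberty (7.9% of tested genes separated in that direction), and GABRB1 separated with postpuberty below puberty (6.19%).

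Most of the variation of the members was between ewes of the same stage. Over all 9 libraries, stage accounted for between 11.5% (GABRB1) and 32.7% (GABRA2) of the variance of a member's log2(FPKM + 1), beside a median of 18.9% over tested genes. Without Puberty 2 it accounted for between 0.959% (GABRA3) and 24.1% (GABRB1), beside a median of 14.3%.

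Neuron marker levels are given beside the members. Over all 9 libraries the Pearson r of a member with the mean log2 of the neuron markers lay between 0.50 (GABRG1) and 0.87 (GABRA3), and over the 8 libraries other than Puberty 2 between -0.06 (GABRB1) and 0.84 (GABRA3), as a description. Puberty 2, with the lowest mean log2(FPKM + 1) over the 10 neuron markers (5.01), had the lowest level of 6 members, and for GABRA5 it was listed at 0 together with Postpuberty 1. Postpuberty 1 (5.23) and Prepuberty 1 (5.41) followed, and in these the GABRB1 levels of 7.25 and 8.14 FPKM lay within the range of the other 6 libraries. The neuron marker mean was highest in Prepuberty 2 (6.97), Postpuberty 3 (6.84) and Postpuberty 2 (6.80), where GABRB2 was 15.9, 0.093 and 8.83 FPKM and GABRA3 was 15.3, 9.02 and 9.90 FPKM. Among markers of neuron types, GAD2 (GABA neurons) was 44.8 FPKM in Prepuberty 2 and 20.7 FPKM in Postpuberty 2 against at most 13.0 FPKM elsewhere, and SLC17A6 (glutamate neurons) was 53.3 and 31.8 FPKM against at most 13.7 FPKM. These libraries were also the highest for GABRB2, whereas SLC32A1 and SLC17A7, the other markers of these types, were not highest there. These genes were singled out after their values were seen. Oligodendrocyte markers (6 genes) summed to their lowest values in Prepuberty 2 (6204 FPKM) and Postpuberty 2 (6352 FPKM), the libraries with the most GABRB2, against 8753 to 14353 FPKM elsewhere. In Postpuberty 2 the low sum came from MBP (1112 FPKM, against 2426 to 7824 FPKM in the other libraries), while MOG (336 FPKM) and MOBP (366 FPKM), named after their values were seen, were each exceeded in only 2 of the other libraries. As a description, the Pearson r of the members with the mean log2 of the oligodendrocyte markers over the 8 libraries other than Puberty 2 ran from -0.31 (GABRB1) to -0.96 (GABRA3, -0.67 over all 9). Puberty 2 was also lowest in mean log2 of the 6 astrocyte markers (5.80, against 6.81 to 7.31 elsewhere), but not in their sum. Over all 9 libraries r with that mean was 0.92 for GABRB1 and 0.82 for GABRG1, against 0.53 and 0.50 with neuron markers. The other members had lower r with astrocyte than with neuron markers. Over the 8 libraries other than Puberty 2, r with astrocyte markers was 0.36 for GABRB1 and 0.16 for GABRG1. The part of cell composition in the subunit levels was not tested.

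**Figure D4:**
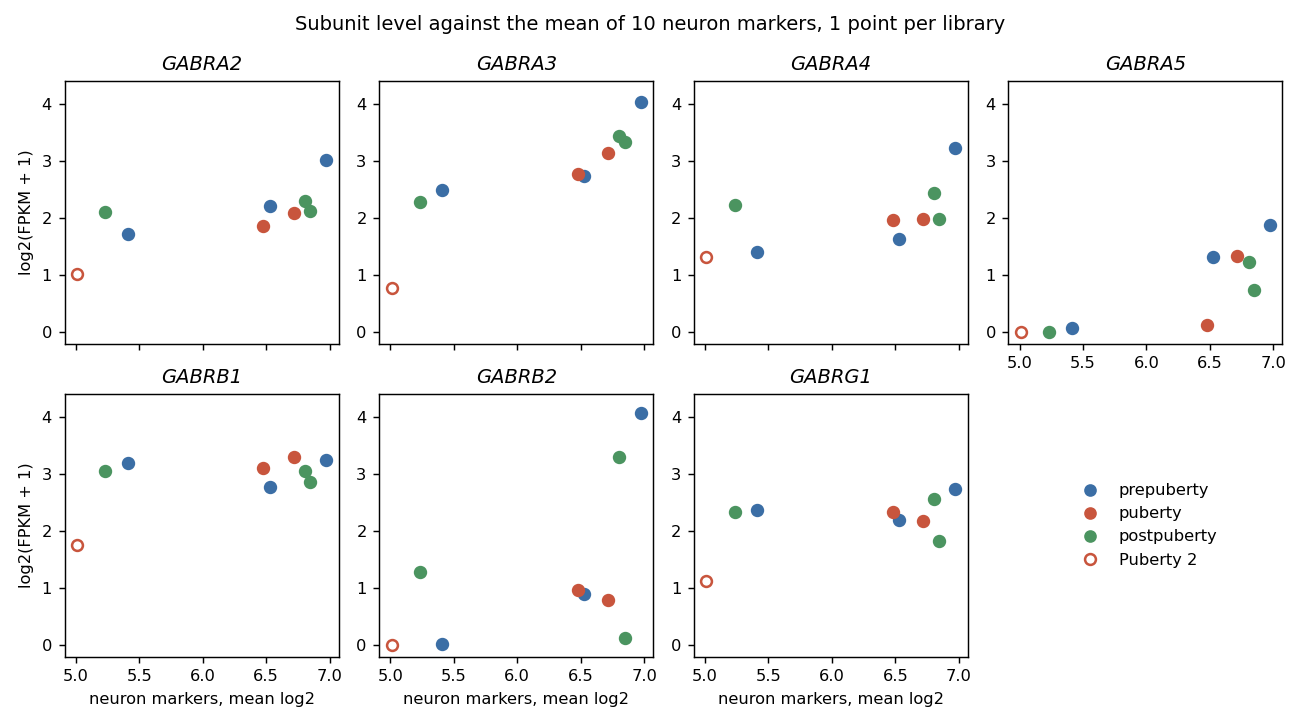
Level of each subunit gene, as log2(FPKM + 1), against the mean log2(FPKM + 1) of 10 neuron markers, 1 point per library, with stages by colour and Puberty 2 as an open point. Puberty 2 has the lowest neuron marker mean, 5.01, and GABRB1 stays between 5.87 and 8.83 FPKM in the other 8 libraries.

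Across the 8 libraries other than Puberty 2, the 4 α genes and GABRB2 varied together, with Pearson r of log2(FPKM + 1) between 0.56 and 0.90 over their 10 pairs and a median of 0.80. GABRB1 varied less closely with the other members, with r between 0.08 and 0.53 over 6 pairs, but between 0.39 and 0.89 with Puberty 2, which was low in all members. GABRG1 had its highest r with GABRB2 (0.82) and its lowest with GABRA3 (0.33) and GABRA5 (0.29). The points share library preparation and tissue composition, and Prepuberty 2 is the highest library for each α gene and for GABRB2. Leaving it out as well, r ran from 0.17 to 0.77 over the 10 pairs (n = 7) and from -0.48 to 0.40 for GABRB1, and the r of GABRG1 with GABRB2 was 0.68. These values are descriptions only.

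Among 12281 genes with a mean of at least 1 FPKM, the gene whose pattern over these 8 libraries was most like each member was DLGAP4 for GABRA2 (r = 0.97), MFSD12 for GABRA3 (r = 0.99), KCTD8 for GABRA4 (r = 0.99), ELFN2 for GABRA5 (r = 0.98), NUP155 for GABRB1 (r = 0.92), RETREG2 for GABRB2 (r = 0.99) and KBTBD7 for GABRG1 (r = 0.96). With Puberty 2 included, these 7 genes kept r of at least 0.96 with their member. Others near the top did not. For GABRA3, OTUB1 ranked second with r = 0.99 over 8 libraries and -0.22 over 9. The genes were picked for the highest r among 12281, so a high r over the 8 libraries follows from the choice. Puberty 2 was low in all members, so r over 9 libraries is no separate support. These coefficients rest on 8 libraries each, or 9 where stated, and are descriptions.

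Where a gene has several coding transcripts, the table lists each. GABRA3 has 2, and their balance differed between stages. XM_042241792.1 made up 10.0%, 18.8% and 19.8% of GABRA3 in the prepubertal libraries, 69.3%, 100% and 59.4% in the pubertal ones and 11.0%, 46.0% and 50.1% in the postpubertal ones. Every pubertal library lay above every library of the other stages, with means of 16.2% ± 5.41, 76.2% ± 21.2 and 35.7% ± 21.5 (SD, n = 3). This transcript was singled out after its values were seen, and no test is given. For comparison, genes with several coding transcripts were kept if detected in every library with a mean of at least 0.5 FPKM in any stage. Transcripts whose mean share was close to none or all of their gene were left out. Of the remaining 23721 transcripts in 7530 genes, 3.2% had shares that separated with puberty above prepuberty, and 3.06% separated with postpuberty below puberty. The share that separated in both ways at once is not given here. Without Puberty 2, whose 100% rests on a gene total of 0.718 FPKM, the pubertal libraries still lay above both other stages, beside 9.09% and 9.22% of 23672 transcripts.

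As levels, XM_042241792.1 measured 0.460, 2.89 and 1.13 FPKM in the prepubertal libraries, 5.42, 0.718 and 3.45 FPKM in the pubertal ones and 0.425, 4.55 and 4.52 FPKM in the postpubertal ones. The other transcript, XM_004022275.5, measured 4.14, 12.5 and 4.57 FPKM in the prepubertal libraries, 2.40, 0 and 2.36 FPKM in the pubertal ones and 3.45, 5.35 and 4.50 FPKM in the postpubertal ones. All 3 pubertal libraries were thus below all 6 others for XM_004022275.5. Of 27674 coding transcripts with a mean of at least 0.5 FPKM in any stage, 4.66% separated in level with puberty below prepuberty and 6.26% with postpuberty above puberty, and without Puberty 2 the shares were 6.42% and 8.58% of 27243. By contrast, the levels of XM_042241792.1 overlapped between stages with all 9 libraries. Without Puberty 2, its pubertal levels (5.42 and 3.45 FPKM) lay above all prepubertal ones and overlapped the postpubertal ones. The share of all transcripts that separated in that direction is not given here. Reads from exons that transcripts share are divided between them by the assembler's model, so these shares are estimates.

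**Figure D5:**
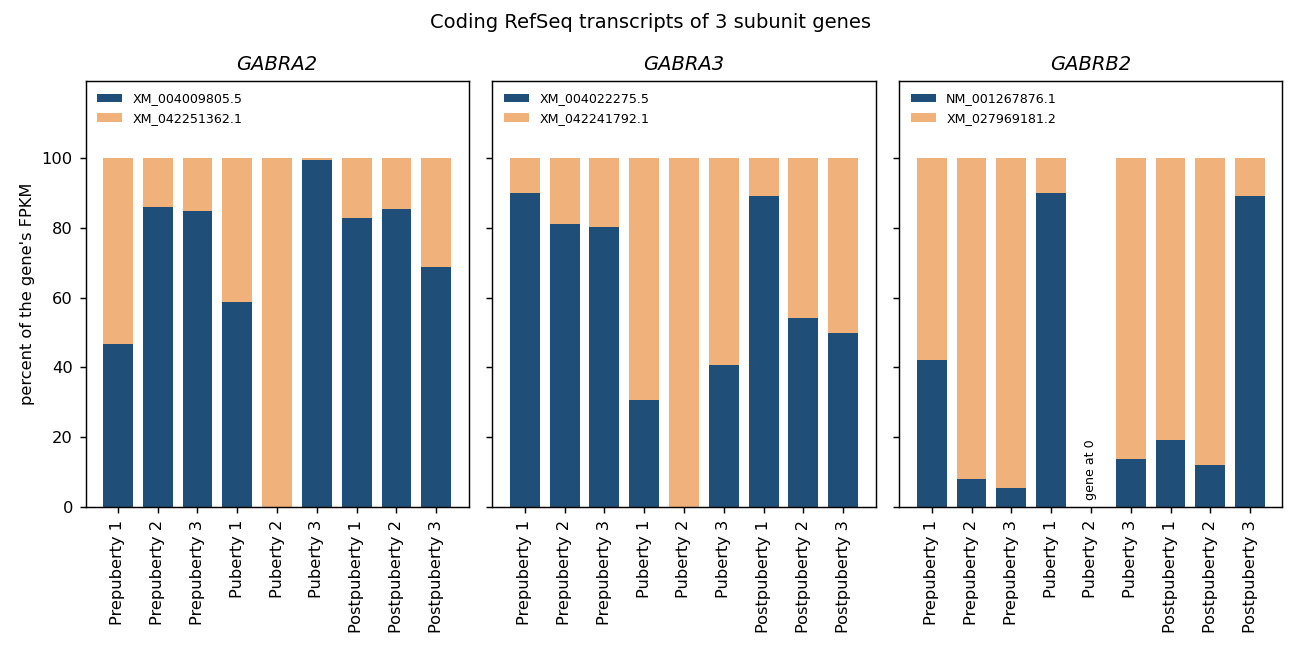
Percentage of the gene's summed coding FPKM taken by each coding RefSeq transcript of GABRA2, GABRA3 and GABRB2, as 1 stacked bar per library, grouped by stage. XM_042241792.1 takes 59.4% to 100% of GABRA3 in the pubertal libraries and 10.0% to 19.8% in the prepubertal ones.

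The other members with several coding transcripts did not separate by stage in this way. For GABRA2, XM_042251362.1 made up 53.3%, 14.0% and 15.3% in the prepubertal libraries, 41.3%, 100% and 0.663% in the pubertal ones and 17.1%, 14.6% and 31.4% in the postpubertal ones. For GABRB2, the high values in Prepuberty 2 and Postpuberty 2 came mainly from XM_027969181.2, at 14.6 and 7.78 FPKM, whereas NM_001267876.1 measured 1.28 and 1.05 FPKM there. GABRA5 has 3 coding transcripts, of which XM_027957495.3 was above 0 only in Prepuberty 2 (0.0022 FPKM) and Postpuberty 2 (0.713 FPKM). GABRA4, GABRB1 and GABRG1 have 1 coding transcript each.

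The wider GABA system was described from lists of genes. In each list limma called 0 genes in each of the 3 comparisons, both with and without Puberty 2, as it did over all genes (0%). At an unadjusted p under 0.05, 0 genes of these lists passed with all 9 libraries, and without Puberty 2 there was 1 gene of the GABA-B list (prepuberty to postpuberty, beside 1.87% of all genes) and 1 of the neurosteroid list (puberty to postpuberty, beside 2.11%). The 6 other subunit genes tested had median log2 differences of -0.37 from prepuberty to puberty, 0.49 from puberty to postpuberty and 0.45 from prepuberty to postpuberty. Without Puberty 2 the first 2 medians changed sign, to 0.18 and -0.05. The third ran from 0.09 (without Prepuberty 1) to 0.99 (without Prepuberty 2), with 0.11 without Postpuberty 1 and 0.76 without Postpuberty 3. The first was 0.20 without Prepuberty 2. Without Puberty 3 the first 2 were -0.62 and 0.81. The genes that anchor and traffic the receptors (20 tested) had medians of -0.39, 0.43 and 0.08 in the same order, and without Puberty 2 the first 2 were 0.05 and 0.04. Without Puberty 1 the first 2 were -0.70 and 0.71. The first was -0.12 without Prepuberty 2, and over all single libraries left out the third ran from -0.03 (Prepuberty 1) to 0.18 (Prepuberty 2). GABARAP, which binds γ subunits and takes part in receptor trafficking, was even, between 141 and 228 FPKM in the 9 libraries, whereas NSF, an ATPase of vesicle fusion, ranged from 11.7 to 158 FPKM. GPHN, the gephyrin scaffold of inhibitory synapses, was listed at 0 in Puberty 2 and between 4.73 and 11.4 FPKM elsewhere, and was chosen for mention after its values were seen.

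Genes of GABA synthesis, release, uptake and breakdown (7 tested) had medians of -0.58, 0.54 and 0.03, of which the first 2 came to -0.21 and 0.17 without Puberty 2. Without Puberty 1 the first 2 were -0.96 and 0.94. The first was -0.23 without Prepuberty 2 and the second 0.34 without Postpuberty 2. The third ran from -0.31 (without Postpuberty 2) to 0.23 (without Postpuberty 3). The transporter SLC6A11 ranged from 26.8 to 92.3 FPKM and the GABA transaminase ABAT from 16.3 to 81.9 FPKM, and both were lowest in Puberty 2 and highest in Prepuberty 2. Genes that set the chloride gradient (7 tested) had medians of -0.23, 0.29 and 0.04, and leaving out Puberty 2 turned the first to 0.15 and brought the second to 0.0035. Without Puberty 3 the first 2 were -0.43 and 0.45. With single libraries left out the third ran from -0.04 (Postpuberty 2) to 0.09 (Postpuberty 3). SLC12A5, the chloride exporter of mature neurons, measured 11.6, 111 and 34.8 FPKM in the prepubertal libraries, 50.2, 4.72 and 39.1 FPKM in the pubertal ones and 24.5, 81.3 and 43.9 FPKM in the postpubertal ones. As for GABRB2, Prepuberty 2 and Postpuberty 2 were its highest libraries. SLC12A2, a chloride importer, ranged only from 21.6 to 32.8 FPKM outside Puberty 2 (13.3 FPKM).

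The GABA-B receptor genes (5 tested), which encode the G protein-coupled receptors for GABA and their auxiliary subunits, had medians of -0.35, 0.28 and -0.07, with -0.24 and 0.08 for the first 2 without Puberty 2 and 0.04 for the first without Prepuberty 2. The first was -0.90 without Prepuberty 1. The third ran from -0.42 (without Prepuberty 1) to 0.32 (without Prepuberty 2). Genes of neurosteroid synthesis with TSPO (6 tested) had medians of 0.65, -0.69 and 0.01, and without Puberty 2 of 0.54, -0.69 and 0.01. The first was 0.38 without Prepuberty 2, and the third ran from -0.08 (without Prepuberty 2) to 0.03 (without Prepuberty 1). Without Puberty 3, the library with the highest choroid plexus marker sum, the first 2 were 0.02 and -0.08. In that library 3 of the 6 genes stood above all others, STAR at 4.71 FPKM (at most 1.63 FPKM elsewhere) and, named after their values were seen, HSD3B1 at 6.31 FPKM (at most 0.320) and CYP11A1 at 4.08 FPKM (at most 0.063). HSD3B1 and CYP11A1 thus passed the filter of 0.5 FPKM only through Puberty 3. The medians of comparisons with puberty therefore rest partly on genes kept for a high pubertal value, and no conclusion is drawn from them. Neurosteroids are potent modulators of GABA-A receptors. DBI, whose peptide binds to GABA-A receptors and to TSPO, measured 416 FPKM in Puberty 2 and between 120 and 224 FPKM elsewhere, and TSPO 66.1 FPKM in Puberty 2 and between 8.89 and 24.2 FPKM elsewhere. Both were thus highest in the library in which the members' sum was lowest. That library stood apart in its FPKM over all rows (599726 against 359588 to 398109 elsewhere). GABARAP was also highest there, at 228 FPKM against 141 to 172 FPKM elsewhere. A relation of DBI or TSPO to the members was not tested, and none is read from 1 library.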

How the data were processed

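Total RNA of the hypothalamus of 9 ewes was sequenced after poly(A) selection. The authors trimmed reads with Trimmomatic, aligned them with HISAT2 to the sheep assembly ARS-UI_Ramb_v3.0 and assembled and quantified transcripts with StringTie. The deposited table holds 1 FPKM value per transcript and library (115108 rows), normalised by the authors for transcript length and library size. It holds no counts, so the count test of the study's methods was replaced by limma. Of 76684 coding RefSeq rows, 76682 were matched to 21284 genes through RefSeq and summed per gene. Assembled rows without a gene name (22600) were not used, so reads assigned to them are missing from the members.

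Genes with a mean of at least 0.5 FPKM in any stage were fitted with limma 3.58.1 (R 4.3.3) on log2(FPKM + 1), with stage as the only factor, a variance trend and Benjamini-Hochberg adjustment over all genes tested. Single genes were compared by exact permutation. The procedure was tested on simulated data. Python 3.11.15 was used for summaries. The members, gene lists and markers were chosen with earlier results of these data known. All members are named, the 3 genes most like each member were ranked, and at most 4 genes of highest mean FPKM were eligible for naming per list of GABA genes. Genes named outside this rule were chosen after their values were seen, and tissue markers were named where a check of the tissue turned on them. The alternatives were another pseudocount (0.1), other filters and scalings, noncoding rows added, a replicate block and leaving out each library.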

Additional observations from a re-analysis of the deposited data

How the results depend on the processing

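Under all 16 alternative settings limma called 0 genes in each stage comparison and in the F test. Under the settings that kept all libraries, 78 log2 differences of members could not move by construction, 65 moved and kept their sign, and 1 changed it: GABRB2 from prepuberty to postpuberty was 0.17 with a pseudocount of 0.1. That setting also moved GABRA5 from -0.60 to -1.50 (prepuberty to puberty), from 0.17 to 0.62 (puberty to postpuberty) and from -0.43 to -0.88 (prepuberty to postpuberty), GABRB2 from 0.99 to 1.64 (puberty to postpuberty) and GABRA4 from 0.13 to 0.23 (prepuberty to postpuberty). Leaving out 1 library of the stages compared changed the sign in 18 of 126 cases. The ranges then ran as follows. From prepuberty to puberty, GABRA4 ran from -0.67 to 0.24, GABRB1 from -0.64 to 0.13 and GABRB2 from -1.90 to 0.12. Those that kept their sign were GABRA2 (-0.96 to -0.31), GABRA3 (-1.31 to -0.13), GABRA5 (-1.10 to -0.21) and GABRG1 (-0.78 to -0.17). From puberty to postpuberty, GABRA5 ran from -0.11 to 0.60, GABRB1 from -0.21 to 0.56 and GABRG1 from -0.017 to 0.59. Those that kept their sign were GABRA2 (0.20 to 0.74), GABRA3 (0.065 to 1.25), GABRA4 (0.24 to 0.58) and GABRB2 (0.12 to 1.71). From prepuberty to postpuberty, GABRA2 ran from -0.44 to 0.21, GABRA3 from -0.37 to 0.40, GABRA4 from -0.21 to 0.70, GABRB1 from -0.23 to 0.0031, GABRB2 from -0.96 to 1.11 and GABRG1 from -0.35 to 0.014. GABRA5 kept its sign there, from -0.93 to -0.04. Scaling libraries to equal totals moved the median of all genes from -0.14 to -0.28 from prepuberty to puberty. It also moved this median from 0.19 to 0.30 from puberty to postpuberty and from 0.05 to 0.02 from prepuberty to postpuberty. Upper-quartile scaling moved the median to 0.11 and 0.0006, respectively, in these comparisons. It moved GABRB1 from 0.27 to 0.17 in the former. In the latter it moved GABRB1 from -0.08 to -0.13 and GABRA3 from -0.07 to -0.12. With noncoding rows added, the mean GABRA2 share was 18.8% in prepuberty, and the log2 difference of GABRA2 moved from 0.52 to 0.19 from puberty to postpuberty and from -0.14 to -0.56 from prepuberty to postpuberty. The list medians without single libraries, and the GABRA3 transcript share, were computed after the data were seen.

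The labels number the replicates 1 to 3 in each stage, but the ewes are separate animals. Same-numbered libraries deviated from their stage means with r between -0.31 and 0.51 over 9 pairs, above 0.1 in 2 of them. For libraries with different numbers, r lay between -0.56 and 0.31 over 18 pairs, above 0.1 in 5 of them. These values cannot decide on pairing, and the numbers were not used as pairs because the animals are separate. With the replicate block, 0 genes were called in each comparison, and 281, 327 and 103 genes had an unadjusted p under 0.05.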

Other observations

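GABRA2 also has a noncoding RefSeq transcript, XR_003589684.2, which is left out of its level. It measured 4.0, 1.18 and 0.710 FPKM in the prepubertal libraries, 1.77, 0.447 and 1.44 FPKM in the pubertal ones and 0.337, 0.425 and 0.163 FPKM in the postpubertal ones. In Prepuberty 1 it exceeded the summed coding transcripts of the gene (2.31 FPKM). This transcript was singled out after its values were seen, and no test is given.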
